A study of Homo sapiens with 6 samples.

Results

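Broad shared accessible regions are the widest merged stretches of open chromatin that hold a peak in every library of an ATAC-seq comparison. Their width is that of the joined peaks of all libraries, not a width found in each library. The cells were NCI-H1703, an established line of human lung squamous cell carcinoma. ATAC-seq cuts open DNA with a transposase that inserts sequencing adapters, so fragments pile up where chromatin is accessible, and a peak is an interval where the pile-up stands above its background. The labels describe 6 libraries, 3 from cells with silenced DLGAP1-AS2, a long non-coding RNA (titled ASO), and 3 from control cells (titled NC), with no dose and no time. The peaks of all 6 lists on chromosomes 1 to 22 and X were merged where they overlapped by at least 1 bp. A region was kept when it held a peak in all 6 libraries and its merged length was at least 1500 bp. This rule gave 585 regions, which is 1.57% of the 37261 regions shared by all 6 libraries and a small fraction of the 507086 merged regions. The other 36676 shared regions are called regions of usual width here. The regions were thus chosen by merged peak length and by presence in every list, so both are given as a description, without a test.

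As background, most open chromatin of a cell lies at promoters and enhancers, where transcription factors displace nucleosomes. An active promoter has a nucleosome-depleted stretch just before the start of the gene. Many genes share such a stretch with a neighbour that starts from the opposite strand, and the short, strongly transcribed genes of small nuclear RNAs and tRNAs carry their own. CpG islands, stretches rich in the dinucleotide CG that are mostly unmethylated, mark the promoters of many widely expressed genes.

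To show what lies at gene starts in such regions, promoter sequences are printed for 6 genes whose start lay in a broad region. They come from RefSeq (GRCh38.p14, 250 bases before a gene's start and 50 after it). SIRT4, DGKH and HSP90AB1 belong to the longest regions, USP5 to the region with the tallest peaks, HNRNPA2B1 to a pair of genes that start from opposite strands, and TRO to one of the few CpG-poor starts. Capitals mark matches to the searched motifs, which were the GC box GGGCGG, the CCAAT box CCAAT, the TATA box TATAAA, the cyclic AMP response element TGACGTCA, the AP-1 motif TGANTCA, the TEAD motif GGAATG, the ETS motif CCGGAAG, the NRF1 motif, the YY1 motif AAGATGGCG and the E-box CACGTG, on both strands, and 1 base could count for several motifs.
SIRT4, chr12:120291939-120292238, strand plus: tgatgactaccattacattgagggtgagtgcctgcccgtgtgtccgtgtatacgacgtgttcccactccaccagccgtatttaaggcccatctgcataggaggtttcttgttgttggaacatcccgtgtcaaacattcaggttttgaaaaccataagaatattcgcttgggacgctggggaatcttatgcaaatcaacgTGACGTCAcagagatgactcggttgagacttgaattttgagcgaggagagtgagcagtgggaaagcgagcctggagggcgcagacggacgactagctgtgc
DGKH, chr13:42048398-42048697, strand plus: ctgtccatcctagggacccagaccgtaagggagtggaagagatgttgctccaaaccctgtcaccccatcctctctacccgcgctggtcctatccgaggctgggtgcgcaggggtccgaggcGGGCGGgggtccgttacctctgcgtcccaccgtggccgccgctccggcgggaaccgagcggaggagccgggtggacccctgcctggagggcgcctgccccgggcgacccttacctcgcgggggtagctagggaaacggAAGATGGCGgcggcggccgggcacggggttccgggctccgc
HSP90AB1, chr6:44245944-44246243, strand plus: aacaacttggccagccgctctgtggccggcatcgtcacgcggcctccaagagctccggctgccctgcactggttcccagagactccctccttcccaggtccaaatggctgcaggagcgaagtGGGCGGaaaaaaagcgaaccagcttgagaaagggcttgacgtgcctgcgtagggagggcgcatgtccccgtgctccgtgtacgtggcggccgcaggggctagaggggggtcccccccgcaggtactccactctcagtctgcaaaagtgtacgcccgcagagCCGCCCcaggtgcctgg
USP5, chr12:6851900-6852199, strand plus: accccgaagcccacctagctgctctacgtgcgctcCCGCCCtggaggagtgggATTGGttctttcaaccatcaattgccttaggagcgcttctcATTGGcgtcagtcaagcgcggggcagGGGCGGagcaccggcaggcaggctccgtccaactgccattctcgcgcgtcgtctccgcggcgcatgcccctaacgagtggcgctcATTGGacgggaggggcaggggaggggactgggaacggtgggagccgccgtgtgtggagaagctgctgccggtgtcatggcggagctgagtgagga
HNRNPA2B1, chr7:26200697-26200996, strand minus: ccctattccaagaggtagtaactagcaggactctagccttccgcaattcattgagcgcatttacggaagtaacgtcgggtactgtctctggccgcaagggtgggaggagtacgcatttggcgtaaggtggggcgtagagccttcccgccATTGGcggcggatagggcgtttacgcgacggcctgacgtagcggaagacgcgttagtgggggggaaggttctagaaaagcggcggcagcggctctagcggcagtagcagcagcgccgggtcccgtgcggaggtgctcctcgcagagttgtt
TRO, chrX:54920574-54920873, strand plus: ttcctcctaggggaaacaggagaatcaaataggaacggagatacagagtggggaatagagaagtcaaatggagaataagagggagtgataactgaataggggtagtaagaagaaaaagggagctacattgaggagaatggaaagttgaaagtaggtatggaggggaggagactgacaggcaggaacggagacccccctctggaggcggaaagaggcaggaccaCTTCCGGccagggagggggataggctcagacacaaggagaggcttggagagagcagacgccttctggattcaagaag
The CpG ratio, the observed number of CG dinucleotides over that predicted from the C and G content, was 0.862 at SIRT4, 0.815 at DGKH and 1.11 at HNRNPA2B1, against 0.317 at TRO. USP5 carried 3 CCAAT boxes and 2 GC boxes in these 300 bases, while the SIRT4 promoter held 1 cyclic AMP response element and no GC box.

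The libraries differed in ways that touch every value below. Read numbers are not given, so the background coverage behind the peaks served as a relative depth: it was 0.369, 0.402 and 0.237 in silenced replicates 1 to 3 and 0.380, 0.464 and 0.372 in control replicates 1 to 3. Silenced replicate 3 was thus the shallowest library, and its peaks were the lowest, with a median height (the deposited pile-up) of 14 at the broad regions against 29 to 35 in the other 5. Control replicate 2 had the shortest list, 91282 peaks against 121337 to 170747 elsewhere. The lists hold no RNA level, so the silencing itself was not checked here. Of 8 markers of squamous epithelium, only SOX2 had a start or end in a shared region, and TP63, KRT5, KRT14, KRT6A, DSG3, DSC3 and PKP1 had none. Neither did any of 8 general epithelial markers such as CDH1 and EPCAM, whereas 6 of 10 mesenchymal markers did, so most markers of the labelled tissue were absent from the shared regions. No marker of squamous, epithelial, mesenchymal, alveolar, blood or endothelial cells lay at a broad region. Shared regions of usual width were at 2 of 8 alveolar, 2 of 8 blood and 0 of 8 endothelial markers.

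The broad regions covered 0.982 Mb in all, which was 3.98% of the length of the shared regions. Their merged lengths ran from 1500 to 2669 bp with a median of 1629 bp, and only 26 reached 2000 bp. Just inside the limit lay LENG8 with LENG8-AS1 (1500 bp), ZNF579 (1500 bp) and RASSF8 with RASSF8-AS1 (1501 bp), with heights of 19 to 38, 8 to 17 and 11 to 27 over the 6 libraries. Just outside it, at 1499 bp each, were the region of MRPL21 and IGHMBP2 (heights 9 to 26), a region inside SSBP4 (11 to 25) and the region of SRSF6 (22 to 41). The heights on either side of the limit fell in the same range. Of the 589 merged regions that reached 1500 bp in any number of libraries, 585 had a peak in all 6. Merged length joins the peaks of all libraries, so a region called in more libraries has more peaks with which to reach the limit. The count is therefore only a description.

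**Figure D1:**
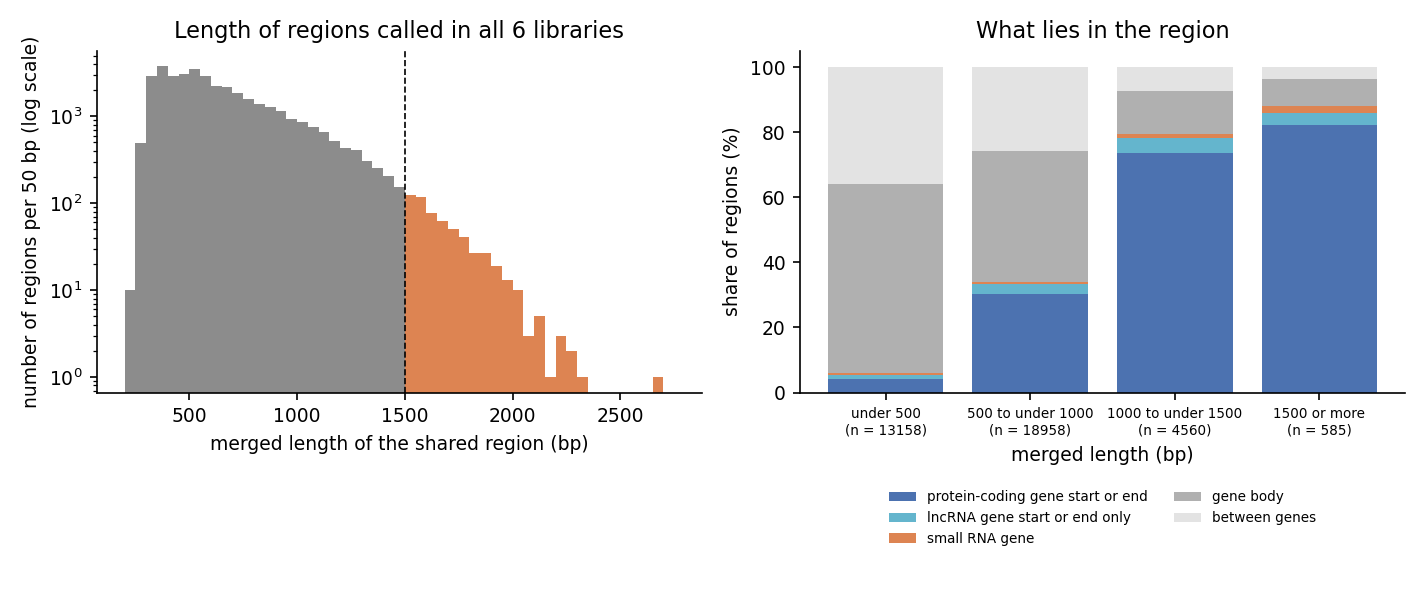
Left, the number of regions called in all 6 libraries per 50 bp of merged length (log scale), with the 585 broad regions in orange to the right of the dashed line at 1500 bp. Right, the share of regions of 4 width classes by what lies in them; the share with the start or end of a protein-coding gene grew from the narrowest class to 82.2% of the broad regions.

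What filled these regions was first of all genes. A gene start or gene end, of protein-coding or lncRNA genes, lay in 502 of the 585 broad regions (85.8%, 95% Wilson interval 82.8% to 88.4%, counting error only), against 29.0% of the shared regions of usual width. Span ends were counted only for genes without a tabulated start, so the far ends of the other genes were not looked for. The share rose with width, from 5.53% of regions under 500 bp to 33.4% at 500 to under 1000 bp and 78.2% at 1000 to under 1500 bp. A longer interval has more room for a gene start, and the regions were not matched for that. Protein-coding genes accounted for 481 regions (82.2%), lncRNA genes alone for 21, and small RNA genes alone for 13. A further 48 regions overlapped a gene span but held no counted start or end, and 22 lay between genes. Gene bodies and intergenic stretches, which made up 43.2% and 27.2% of the shared regions of usual width, were thus 8.21% and 3.76% of the broad ones. In all, 554 of 19974 protein-coding genes (2.77%) and 153 of 18177 lncRNA genes (0.842%) had a counted start or end in a broad region.

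More than 1 gene was common. 197 broad regions (33.7%) held starts or ends of at least 2 genes, against 7.49% at usual width, and 143 (24.4%) held starts on both strands, against 5.68%. Among regions with a tabulated start, the both-strand share was 33.3% against 23.1%. In 117 of the 143 the closest pair of starts pointed away from each other, a median of 131 bp apart (154 bp at usual width), and in 26 the closest pair pointed towards each other. CDCA3 and USP5, HNRNPA2B1 and CBX3, HNRNPA1 and CBX5, H3C1 and H4C1, and the stress chaperone genes HSPA1L and HSPA1A each shared 1 broad region.

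Regions with starts on a single strand showed how the open stretch sat around the start. In the 287 broad regions whose tabulated starts all lay on 1 strand, the region reached a median of 702 bp before the start and 977 bp past it, and the downstream side was the longer one in 178 (62.0%). In 6912 such regions of usual width the medians were 427 bp upstream and 379 bp downstream, with the downstream side longer in 44.7%. By these medians the extra length of the broad regions lay more on the side past the start used. At HSP90AB1, with 3 starts, that was the most upstream one (383 bp before and 1865 bp past it). Such a choice lengthens the downstream side where a region holds several starts. Regions were not matched for the number of starts, and its part in the difference was not tested. At 500 bp past the start, 51.9%, 59.9% and 27.2% of the broad regions carried a peak in silenced replicates 1 to 3, and 62.4%, 63.1% and 59.6% in the controls. The corresponding shares at usual width were 14.0% to 24.0%. At the start itself the order turned round: 67.6% to 92.7% of the broad regions were covered, against 84.9% to 95.9% of those of usual width. The region at FOXO1, a forkhead transcription factor gene, ran 364 bp upstream and 1327 bp downstream, and the one at TRIM67 ran 117 bp upstream and 1485 bp downstream. SEPTIN9, a cytoskeletal septin gene, showed the opposite layout at its start, with 1313 bp upstream and 243 bp downstream.

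**Figure D2:**
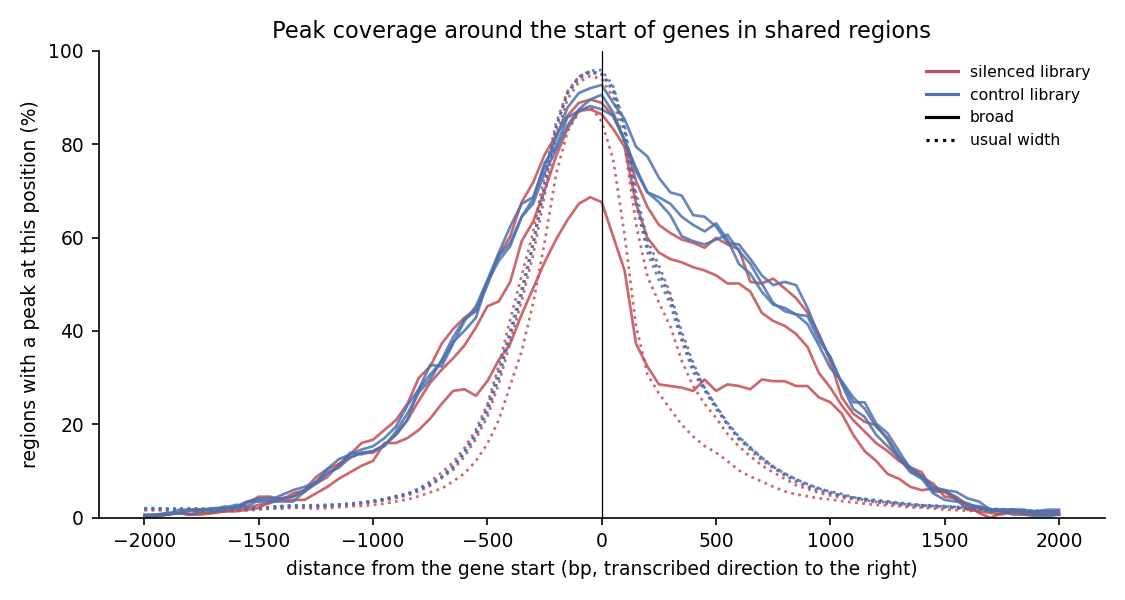
Share of regions that carry a peak at each distance from a gene start (bp, transcription to the right), for 287 broad (solid) and 6912 usual-width (dotted) regions with starts on 1 strand, each line being 1 library. The solid lines stay at 51.9% to 63.1% at 500 bp past the start except in silenced replicate 3, the lowest solid line, at 27.2%; the dotted lines have dropped to 24.0% or less there.

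The promoters in broad regions were richer in CpG than promoters at large. The 783 tabulated starts in broad regions had a median CpG ratio of 0.885 and a median GC content of 70.0%, and 90.4% were CpG-rich (ratio above 0.6 and GC above 50%). Promoters in shared regions of usual width came close, with medians of 0.851 and 66.0% and a CpG-rich share of 85.8%. The 21327 promoters in no shared region had medians of 0.290 and 51.0%. GC boxes, which bind SP-family factors, were found in 78.7% of the promoters in broad regions, 72.8% at usual width and 45.0% of all 34961 tabulated promoters. CCAAT boxes, bound by NF-Y, were less frequent in broad regions (27.1%) than at usual width (37.6%) or over all promoters (34.6%), and ETS motifs were in 13.9%, 20.7% and 10.3%. The TATA box was found in 4.98% of promoters in broad regions, 4.46% at usual width and 11.5% of all. For the AP-1 motif the shares were 3.32%, 4.22% and 7.68%, for the cyclic AMP response element 2.55%, 3.63% and 1.85%, and for the E-box 8.56%, 10.2% and 7.27%. The TEAD motif, bound by the partners of YAP, was in 10.1%, 10.3% and 14.0%. NRF1 motifs were in 1.79%, 2.68% and 1.24%, and YY1 motifs in 3.45%, 4.09% and 1.76%. These are matches of letters in 300 bases around a start, not measured binding, and several promoters can belong to 1 gene.

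Within the broad regions the 6 libraries rarely agreed on one unbroken peak. The core, that is the stretch covered by a peak in all 6 libraries, had a median of 579 bp, 34.6% of the merged length. It took up over 50% of the region in 122 regions (20.9%), and in 26 regions no base was covered in all 6. A single unbroken peak was called in all 6 libraries in 29 regions, in none of them in 71, and in 1 to 5 of them in 485. A peak of at least 1500 bp occurred in at least 1 library in 198 regions (33.8%) and in every library in 2 of them. Those were a region inside HHAT, which encodes the acyltransferase of Hedgehog proteins (chr1:210372495-210374255, longest peaks 1641 to 1761 bp), and the region of the U5 small nuclear RNA gene RNU5E-1 (chr1:11908149-11909881, 1595 to 1716 bp). The longest core, 1673 bp of 1888 bp, lay at EOLA1 and its divergent transcript on chromosome X, where the heights were 102, 117 and 76 in the silenced and 111, 119 and 107 in the control libraries.

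The longest regions belonged to genes of many kinds. The longest, 2669 bp at chr12:120290573-120293241, held the start of SIRT4, a mitochondrial sirtuin, together with RNU4-2 and RNU4-1, genes of the U4 small nuclear RNA of the spliceosome. Every library called 2 peaks there, and the heights were 59, 72 and 49 in silenced replicates 1 to 3 and 60, 74 and 67 in the controls. The groups overlapped. The next, 2343 bp at chr13:42047417-42049759, held the start of DGKH, a diacylglycerol kinase that makes phosphatidic acid, the lipid named in the title of the series. Its peaks were of moderate height, 17, 21 and 8 in silenced and 17, 21 and 19 in control libraries, and silenced replicate 3 split it into 4 peaks where the other 5 libraries had 2. SLC35G2, a solute carrier gene, followed with 2291 bp and heights of 12 to 22. NR3C1, the glucocorticoid receptor gene, had 2254 bp with heights of 30, 34 and 18 against 23, 22 and 26. HSP90AB1, which encodes the constitutive cytosolic chaperone HSP90 beta and has 3 tabulated starts in its 2249 bp, had heights of 45, 57 and 36 against 41, 65 and 44. Further regions among the 10 longest lay at CITED2 (2226 bp), a transcriptional co-regulator gene, at PDZD7 and SFXN3 (2180 bp), at HCFC1, a chromatin-associated cofactor gene, with TMEM187 (2129 bp), and at ZNF605 (2119 bp).

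**Figure D3:**
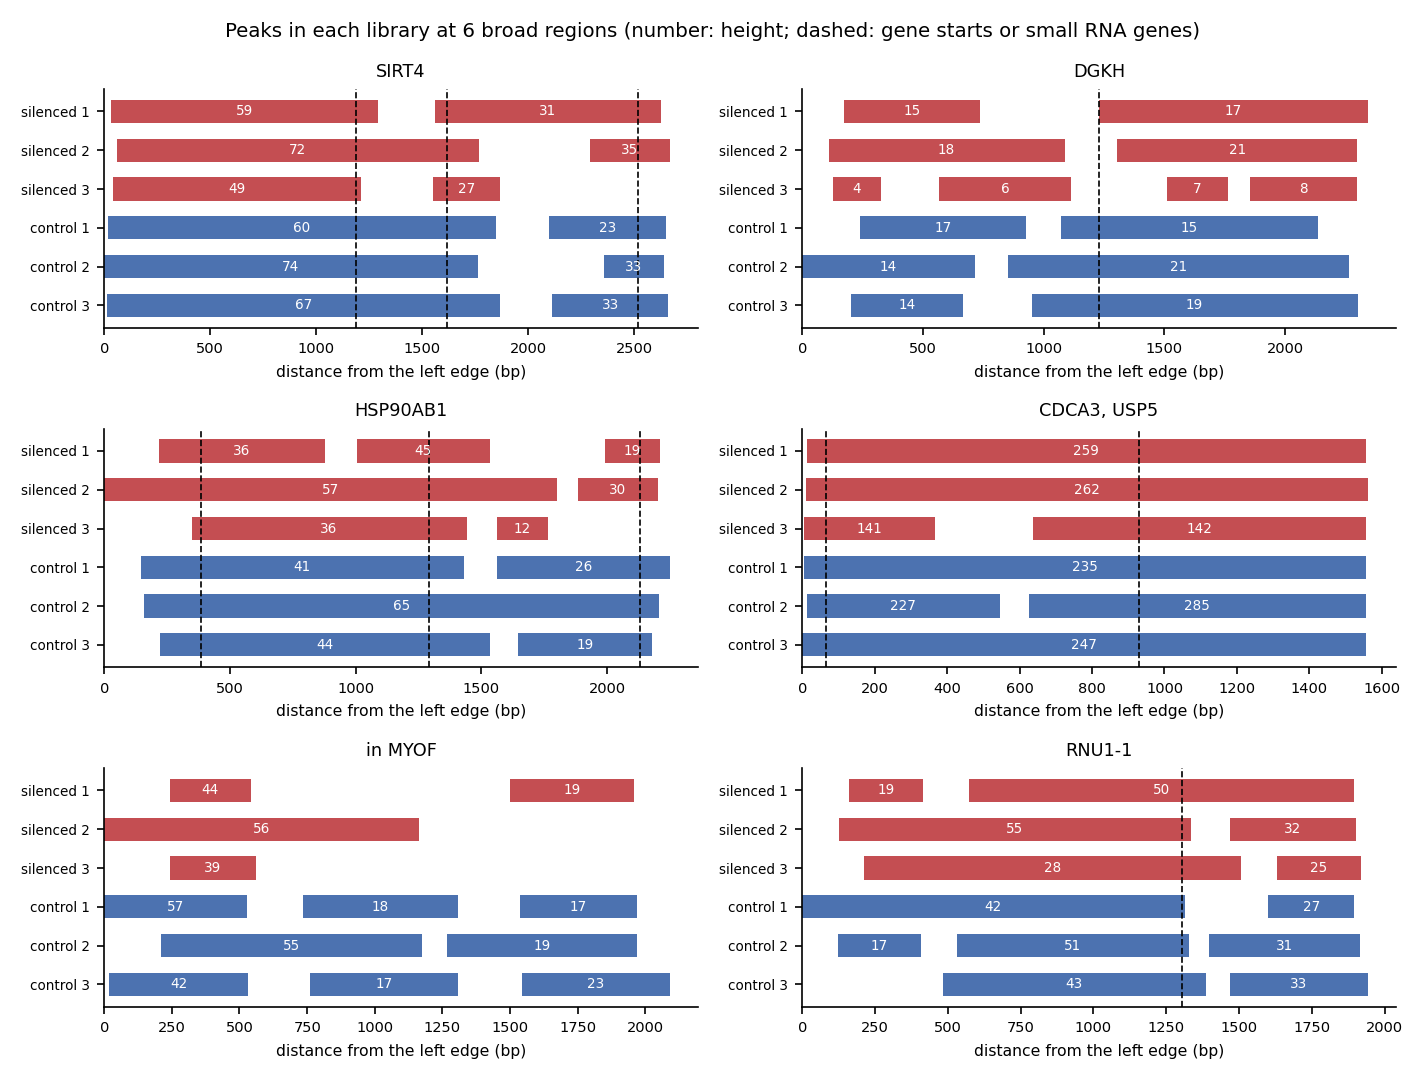
Peaks of each library (red silenced, blue control) along 6 broad regions, in bp from the left edge, with the height of each peak in white and gene starts or small RNA genes dashed. At SIRT4 all 6 libraries called 2 peaks; at DGKH silenced replicate 3 called 4; at CDCA3 and USP5 4 of 6 libraries called 1 unbroken peak.

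Height and width went together only up to a point. The median height over libraries was 11.5 for shared regions under 500 bp, 19 at 500 to under 1000 bp, 34.5 at 1000 to under 1500 bp and 30.5 at the broad ones, so the broad regions were 1.85 times as high as the usual-width regions (16.5) but not higher than the class next to them. Each region is represented by its tallest peak, and a longer region offers more peaks to choose from. A peak's place in its own list, in percent from the top, had a median of 6.94% for the broad regions, 5.74% for those of 1000 to under 1500 bp and 19.4% for those under 500 bp. Of the 585 broad regions, 14 (2.39%) were among the 585 best-ranked shared regions, and broad regions made up 1.57% of all shared regions. The Spearman correlation of length with height rank was 0.468 over the shared regions and 0.0748 within the broad ones, as a description over regions that share their libraries. The median place was 6.21%, 5.82% and 10.7% in silenced replicates 1 to 3 and 5.72%, 10.8% and 6.05% in control replicates 1 to 3. Silenced replicate 3 and control replicate 2 stood apart. With every list shortened to its 91282 tallest peaks, the medians came to 11.0%, 10.7% and 14.3% against 10.7%, 10.8% and 11.0%, so that only silenced replicate 3 still differed from the others.

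**Figure D4:**
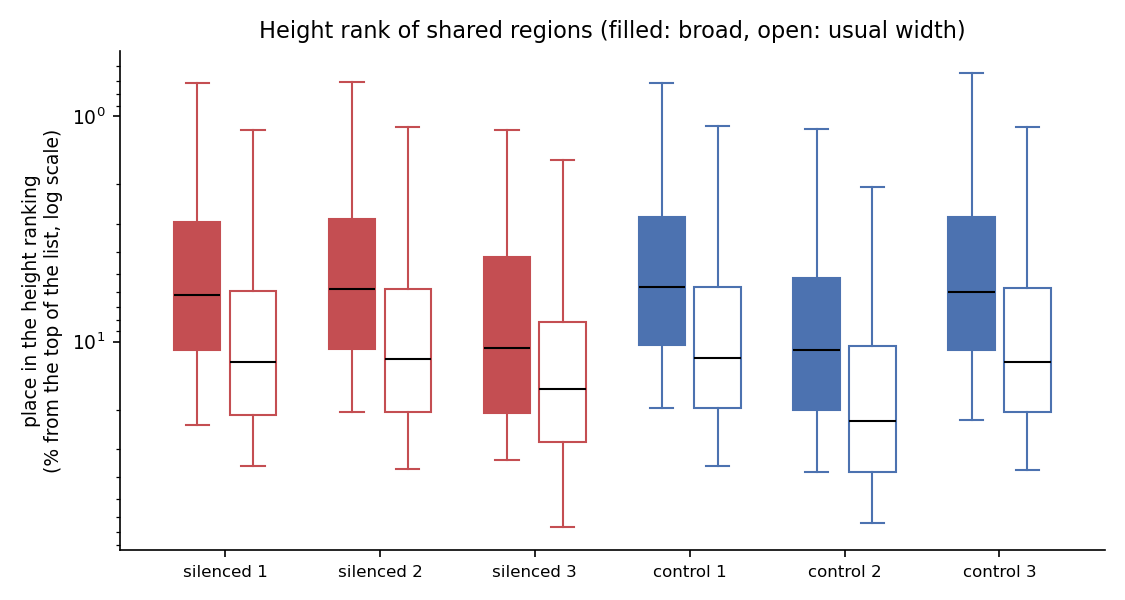
Place of the tallest peak of each shared region in the height ranking of its library, in percent from the top (log scale, best at the top), for broad (filled) and usual-width (open) regions. Boxes span the quartiles, black lines are medians and whiskers leave out the outer 5% of regions at either end; filled medians sit above the open ones in all 6 libraries.

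The tallest broad region was chr12:6851221-6852781, shared by CDCA3, a gene of mitotic entry, and USP5, a deubiquitinase gene. Its heights were 259, 262 and 142 in the silenced and 235, 285 and 247 in the control libraries, which placed it at ranks 7 to 21 of the lists. The step down was large: the next region, at TENT4A, a noncanonical poly(A) polymerase gene, had heights of 124, 151 and 48 against 136, 124 and 133. Silenced replicate 3 was lowest at both, and the other libraries overlapped between groups. An intergenic stretch on the short arm of chromosome 21 (chr21:8992086-8993661) came next, with heights of 85 to 170, and the nearest protein-coding gene in the table, LOC101927345, lay 366348 bp away. SETD5 with THUMPD3-AS1, GABARAPL1 (an autophagy gene of the ATG8 family), DUSP10 (a MAP kinase phosphatase gene), GSK3B (a kinase of Wnt and insulin signalling), NADK2 (mitochondrial NAD kinase), CCT7 (a chaperonin subunit) with PRADC1, and GOLIM4 (a Golgi protein gene) filled the other places of the first 10, with median places of 0.223% to 0.284%.

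At the other end stood wide but shallow regions. The lowest lay inside TMEM164 on chromosome X, where the heights were 4, 4 and 3 in the silenced and 4, 7 and 6 in the control libraries and no base was covered in all 6. ZNF804B (3 to 12), RARB, a retinoic acid receptor gene (3 to 9), ZDHHC2, a palmitoyltransferase gene (5 to 6), LARP6, an RNA-binding protein gene (4 to 10), ZXDB (2 to 11) and HIPK3, a kinase gene (3 to 14), also had no core. LRRC7 and CNTNAP2, known from neurons, and GALNTL6 had heights of 4 to 14, 3 to 10 and 5 to 11 and cores of 132, 340 and 266 bp. In a region with no core, every base was left uncovered by at least 1 library. With an FDR of at most 1e-05 required of each peak, 307 regions met the rule in place of 585.

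Small RNA genes gave the tallest class of broad regions. The 13 regions with a small RNA gene and no other gene start or end had a median height of 66.5, a median place of 1.92% and a core of 58.2% of their length, against 31.0, 6.67% and 34.5% for the 481 regions at protein-coding genes. Counting all classes, tRNA genes lay in 14 broad regions (2.39%, against 0.553% at usual width) and small nuclear RNA genes in 7 (1.20%, against 0.0818%). By gene, 25 of 443 tRNA genes (5.64%) and 8 of 154 small nuclear RNA genes (5.19%) lay in a broad region. The spliceosomal genes were RNU4-2 and RNU4-1 beside SIRT4, RNU1-1 (heights 50, 55 and 28 against 42, 51 and 43), RNU2-2 inside WDR74 (84, 83 and 34 against 74, 77 and 75), RNU4ATAC of the minor spliceosome (62, 63 and 36 against 69, 66 and 64) and the U5 genes RNU5D-1, RNU5E-1 and RNU5F-1. RNU5E-1 reached 98, 94 and 50 in the silenced and 103, 126 and 102 in the control libraries. RNU5F-1 and RNU5D-1 were the closest pair of broad regions, 8054 bp apart. The largest tRNA group, TRR-CCT1-1, TRR-CCT2-1 and TRR-TCG3-1, decoding arginine codons, lay in 2026 bp inside KCTD2 with heights of 85, 88 and 59 against 70, 84 and 62. Silenced replicate 3 was the lowest library at each of these small RNA regions. Such genes exist in near-identical copies, and how reads that fit several copies were handled is not given in the sources used here.

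Of the gene lists, splicing factors were the most frequent. A broad region lay at 5 of 22 (22.7%): SRSF1, HNRNPA1, HNRNPA2B1, HNRNPF and HNRNPH1, which encode RNA-binding proteins of pre-mRNA splicing, and the other 17 had a shared region of usual width. HNRNPA1, together with CBX5, had heights of 81, 93 and 61 in the silenced and 82, 103 and 86 in the control libraries, and SRSF1 had 59, 66 and 34 against 57, 63 and 65. Replication-dependent histone genes came to 6 of 69 (8.70%), H1-2, H2AC25 with H2BC26, H2BC5, and H3C1 with H4C1, with heights of 25 to 79. Forkhead genes came to 4 of 45 (8.89%): FOXM1, the proliferation-associated factor (10 to 40), FOXJ2 (11 to 28), FOXJ3 (6 to 24) and FOXO1 (6 to 20). For comparison the share over all protein-coding genes was 2.77%. No HOX gene (of 39), no SOX gene (of 19), none of 12 squamous lineage genes and none of 19 nuclear lncRNAs and small nucleolar RNA hosts was at a broad region. Cytosolic ribosomal protein genes, although widely expressed, had 1 of 85 at a broad region and 81 at regions of usual width.

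The lists that follow the series title had 1 member or none at a broad region, beside 2.77% of all protein-coding genes. Of 20 genes of phosphatidic acid synthesis, DGKH lay at a broad region (5%), 15 others had a shared region of usual width, and AGPAT3, GPAT2, DGKG and DGKI had none. Of 20 genes of the Hippo pathway, which restrains YAP, TEAD4, the gene of a DNA-binding partner of YAP, did (5%), with heights of 37, 42 and 20 in the silenced and 45, 61 and 48 in the control libraries over 2040 bp. A further broad region lay inside VGLL4, the gene of a TEAD cofactor (12 to 47). None of 22 YAP target genes had a start or end in a broad region, while 16 had a shared region of usual width. A single broad region lay inside the target gene MYOF (chr10:93437033-93439122, 2090 bp), with heights of 44, 56 and 39 against 57, 55 and 42. There the silenced libraries called 2, 1 and 1 peaks covering 759, 1163 and 319 bp, and the control libraries 3, 2 and 3 peaks covering 1529, 1666 and 1605 bp. All 3 silenced values of covered length, which is part of what chose the region, were below all 3 control values, while the heights overlapped. Of 24 immediate-early genes only SOCS3, an inhibitor of cytokine signalling, was at a broad region (25 to 72), and 22 were at regions of usual width.

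Broad regions away from gene starts were fewer and somewhat lower. The 48 that overlapped a gene span without a counted start or end had a median height of 24.75, and the 22 between genes 26.75. Some were tall: the region in EGFR (chr7:55132593-55134115), the gene of the epidermal growth factor receptor, had heights of 90, 88 and 60 against 86, 93 and 78, the one in HHAT 81 to 114 apart from 72 in silenced replicate 3, and the one in TRIO, a gene of a guanine nucleotide exchange factor, 84, 93 and 46 against 66, 81 and 76. Other members lay inside the transcription factor genes MEIS2 (11 to 37), MECOM (13 to 48), RORA (5 to 21) and PAX2 (5 to 23). Along the genome the share of shared regions that were broad ran from 0.758% on chromosome 21 to 2.37% on chromosome 10. Only 50 broad regions had another within 100 kb, and 4 gene spans, JMJD1C, MYO19, SEPTIN9 and SRSF1, each met 2 of them.

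The next values set the silenced and control libraries side by side at the broad regions. Covered length and peak length are part of the merged length that chose the regions. They are a description, and no effect of silencing is read from them. Fewer bases of them were covered in the silenced libraries, 665, 731 and 463 kb against 753, 723 and 733 kb, and silenced replicate 3 was far below the rest. The means were 620 ± 140 kb (SD, n = 3) and 736 ± 15.4 kb (SD, n = 3), a difference of -116 kb that is smaller than the spread of the silenced group, and the groups overlapped. Without silenced replicate 3, the shallowest library, the difference was -38.1 kb. Peaks of at least 1500 bp numbered 37, 77 and 3 in the silenced and 87, 64 and 84 in the control libraries. The peaks per broad region were 1.84, 1.66 and 1.80 against 1.59, 1.76 and 1.71, or 1.77 ± 0.0908 (SD, n = 3) and 1.69 ± 0.0868 (SD, n = 3), again overlapping. The median place in the height ranking was 7.58% ± 2.72 (SD, n = 3) and 7.54% ± 2.87 (SD, n = 3), with no separation of the groups.

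Region by region, heights were compared as normal scores of the rank within each library, fitted with limma over all 37261 shared regions. No broad region passed a Benjamini-Hochberg adjusted p of 0.05 (0 of 585, with 0% of all shared regions called), and the smallest adjusted p was 0.970. In simulated data this fit called 32.5% of the regions shifted by 1 score unit and 83.5% of those shifted by 2. Smaller changes could thus be missed. At an unadjusted limma p under 0.05, 6 broad regions were higher in the silenced group (1.03%, against 2% of all shared regions). Lower ones numbered 21 (3.59%, against 2.33%). All 3 silenced scores lay above all 3 control scores in 30 broad regions (5.13%, against 5.12% of all shared regions) and below them in 49 (8.38%, against 4.67%). The score difference was above 0 in 214 (36.6%, against 49.9%) and below 0 in 371 (63.4%, against 50.1%), and its median was -0.05 score units against -0.00053 over all regions. Ranked by the deposited fold enrichment in place of height, the median was 0.06. At an unadjusted limma p under 0.05, 12 broad regions were then higher (against 1.98% of all shared regions) and 4 lower (against 2.7%). The direction thus depended on the measure. For height without silenced replicate 3, the shallowest library, the difference was above 0 in 270 of 585 broad regions and in 18820 of 37261 shared regions. Its median was then -0.02 against 0.0026 over all shared regions. The p-values measure the spread between these libraries, which the labels do not say came from separate cultures.

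The regions with the smallest p, none of which passed the adjustment, were these. OSBPL6, an oxysterol-binding protein gene, had heights of 20, 16 and 9 in the silenced and 36, 36 and 25 in the control libraries, with no overlap, and a limma score difference of -0.63 (SE 0.194, adjusted p = 0.970). The region of REEP3 and JMJD1C, the latter a Jumonji-domain gene, had 16, 28 and 11 against 45, 39 and 28. COPRS had 17, 17 and 6 against 22, 34 and 24, AKR7A2 with SLC66A1 24, 31 and 7 against 37, 41 and 31, and ZNF425 with ZNF398 29, 42 and 7 against 37, 51 and 44. On the higher side, PDCD4, a translation inhibitor gene, had heights of 55, 62 and 36 against 37, 49 and 49, a score difference of 0.34 (SE 0.136, limma adjusted p = 0.970). The arginine tRNA group in KCTD2, the region inside MOK (23, 22 and 17 against 16, 18 and 16), NASP, a histone chaperone gene (81, 99 and 54 against 71, 71 and 76) and GULP1 (43, 51 and 35 against 35, 35 and 44) followed. NR3C1 was the remaining one of the 6 higher regions (limma adjusted p = 0.970). At all 6 of these higher regions the raw heights of the groups overlapped, with silenced replicate 3 lowest or among the lowest in every one but MOK. Overlap of raw heights is not overlap of rank scores. At NR3C1 and the arginine tRNA group, for example, all silenced scores lay above all control scores. The scores of the other higher regions are not listed here, and no overlap of scores is implied for them.

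The covered length of each library is part of the merged length that chose the regions, so its values are a description, and no result is drawn from a test on them. In the same kind of fit limma called 0 of 585 broad regions and 0% of all shared regions. In simulated data it called 0% of the regions shifted by 1 score unit and 42% of those shifted by 2. All 3 silenced scores lay below all 3 control scores in 54 (9.23%, against 4.68%) and above them in 13 (2.22%, against 5.93%). The difference was above 0 in 169 (28.9%, against 52.9%) and below 0 in 416 (71.1%, against 47.1%). The median difference was -0.23 score units against 0.03 over all shared regions. Silenced replicate 3, with the lowest background coverage, covered 47.2% of the merged length and the other 5 libraries 67.8% to 76.7%. Without it the median was -0.07 against 0.0069 over all shared regions. The part of depth in the remaining difference was not tested.

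The next regions were picked by the smallest p for covered length, which is part of the length that chose the broad regions. Their values are therefore a description, and no group difference is read from them. At FOXO1 it was 357, 425 and 265 bp in the silenced and 1414, 1036 and 706 bp in the control libraries, with no overlap, while the heights of 14, 20 and 6 against 17, 19 and 20 overlapped. The region 21987 bp from NRF1, the gene of a regulator of mitochondrial biogenesis, covered 561, 1053 and 395 bp against 1552, 1295 and 1438 bp. SLC35D1, a nucleotide sugar transporter gene, covered 801, 1022 and 677 bp against 1465, 1240 and 1332 bp. The groups did not overlap at these 3 regions. Among regions longer in the silenced group, TAF3, a TFIID subunit gene, covered 1266, 1034 and 847 bp against 978, 703 and 754 bp. CCDC171 covered 1077, 1220 and 989 bp against 974, 993 and 938 bp. CDC37, an HSP90 co-chaperone gene, covered 1154, 1242 and 909 bp against 1017, 954 and 1088 bp. The groups overlapped at all 3 of these, as they did at DGKH, where the covered length was 1679, 1969 and 1442 bp against 1755, 2127 and 1814 bp, and at TEAD4 and SIRT4.

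**Figure D5:**
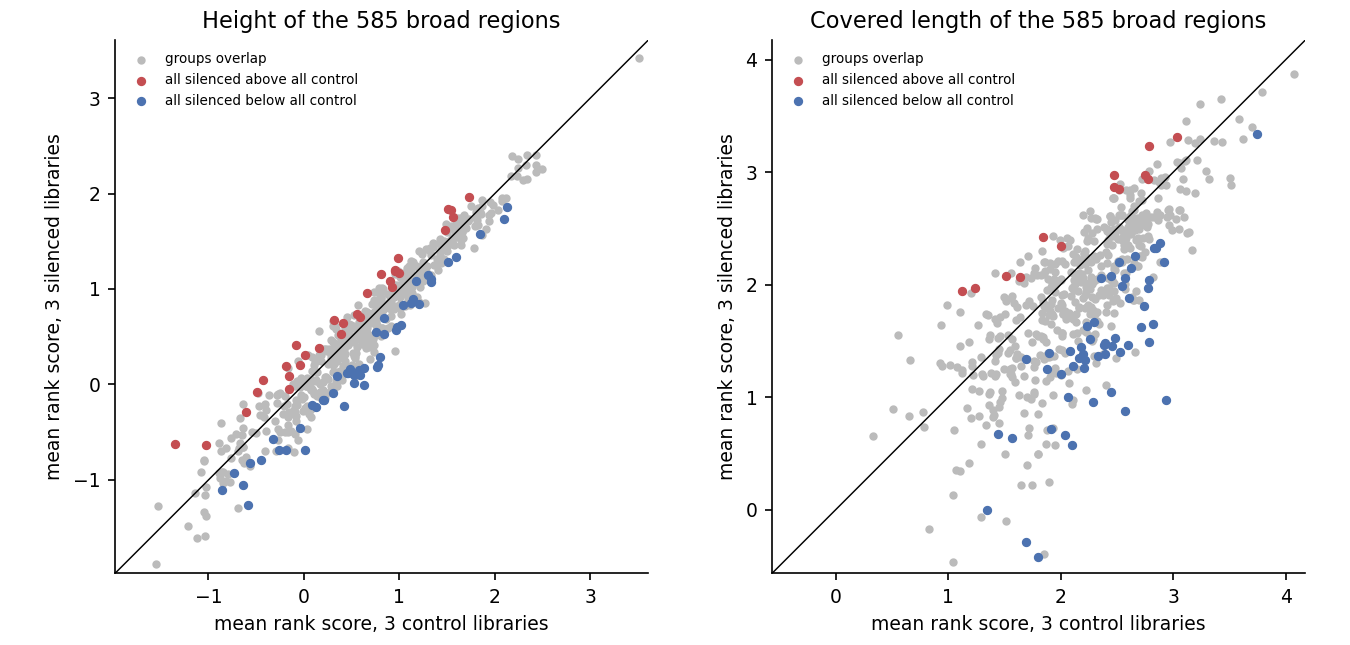
Mean rank score of each of the 585 broad regions in the 3 control libraries (x) and the 3 silenced libraries (y), for height (left, tested) and covered length (right, a description), in normal-score units; the line marks equality. Red and blue points are regions whose groups do not overlap (30 and 49 for height, 13 and 54 for covered length); none passed the adjusted threshold for height.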

How the data were processed

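ATAC-seq peaks were analysed in 6 libraries of NCI-H1703 cells, 3 silenced and 3 control by the labels. Per the submitters' processing notes, the tools were Trimmomatic 0.36, Bowtie2 2.2.6, Picard 2.8.2, MACS2 2.1.1 and bedtools 2.25.0 with build GRCh38; their settings, any shift of read ends for the transposase and the removal of duplicates or mitochondrial reads are not given in the sources used here. The authors deposited 1 peak list per library. Per the file headers each peak has a fold enrichment (a ratio), a p-value and FDR (an adjusted p-value), and a pileup signal, here called height. All are the authors' values. Tests used only ranks within a list. Raw heights of different lists are set side by side as a description and are not adjusted for depth. The background coverage was computed from height and fold enrichment, since depth in reads is unknown.

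Peaks were merged at 1 bp by code written for this purpose, which was checked against bedtools 2.31.1 on simulated intervals. Chromosome Y and unplaced scaffolds were left out (2 shared scaffold regions reached 1500 bp). Gene spans and starts came from RefSeq tables of GRCh38.p14. Tabulated starts were used for 27195 of 38151 protein-coding and lncRNA genes (71.3%) and both span ends for the others; exons, introns and peak sequences were not analysed here. Ranks of height and of covered length within each library were turned into normal scores and tested with limma 3.58.1 (lmFit, eBayes with trend) over all 37261 shared regions, Benjamini-Hochberg threshold 0.05, after a check on simulated data; covered length is part of what chose the regions, so its values are given as a description. The regions named are the 10 longest (1 of them is not reported here), the 10 best and 10 worst by height rank, the neighbours of the length limit, those with the smallest limma p in each direction (5 for height, 3 for covered length), and up to 4 per gene list; other names were chosen after their values were seen. The regions and gene lists were chosen with earlier results of these data known. Alternatives covered the length limit, filters on height and FDR, the ranking measure, the gene rule, the replicate number as a block, and each library left out in turn.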

Additional observations from a re-analysis of the deposited data

How the results depend on the processing

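The number of broad shared regions (585) followed its definition. It was 5145 at a limit of 1000 bp, 26 at 2000 bp, 5 where the core had to reach 1500 bp, 198 where a single peak had to, and 307 with an FDR of at most 1e-05. Leaving out 1 library at a time, chosen after seeing the data, gave 416 to 542. The share with a gene start or end (85.8%) was 89.6% within 1 kb and 82.2% for protein-coding genes only. The difference in covered length (-116 kb) ran from -172 to -38.1 kb with 1 library left out. The difference in peaks per region (0.0803) was -0.118 with an FDR of at most 1e-05, and 0.0325 to 0.132 with 1 library left out. The difference in the median height place (0.0469 percentage points) was -2.29 by fold enrichment and -0.385 by p-value, and -1.52 to 1.70 with 1 library left out; the negative values were -1.52 (silenced replicate 3 left out), -0.863 (control replicate 1) and -0.696 (control replicate 3). The cause was not tested.

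No setting gave a broad region past the adjusted limma threshold; the smallest adjusted p over the alternatives was 0.667 for height and 0.0706 for covered length (FDR of at most 1e-05), which is a description since the rule used it. Counts at an unadjusted p under 0.05, added after seeing the data, moved. For height, regions lower in the silenced group numbered 40, 47, 8 and 11 without silenced replicates 1 and 2 and control replicates 1 and 2, where the shares of all shared regions were 3.47%, 4.21%, 1.37% and 1.42%. Without silenced replicate 3, 15 were lower (against 2.84% of all shared regions) and 10 higher (against 2.15%). With a replicate block in the fit, 0 regions passed for either measure. The unadjusted counts for height were then 26 lower (against 2.55% of all shared regions) and 6 higher (against 1.93%). Libraries of equal replicate number did not deviate together (correlations -0.0109 to -0.00249 for height, -0.0102 to 0.00986 for covered length), so they are not read as pairs. Peak lists give no read depth, and the shallowest library, silenced replicate 3, limits what can be said of length.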
